A study of Mus musculus with 2 samples.

Results

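The cytosolic ribosomal protein genes were taken from the newer of 2 deposited gene annotations (GENCODE M21, mouse assembly mm10) by name. Every protein-coding gene whose symbol is Rps or Rpl with a number and an optional a, x, y or l suffix was kept, together with Rplp0, Rplp1, Rplp2 and Rpsa. This rule gave 84 genes out of 55536 genes in the tables, of which 22028 are protein-coding. Of the 84, 77 are core genes (31 of the small 40S subunit and 46 of the large 60S subunit) and 7 are paralogues of a core gene: Rpl3l, Rpl7l1, Rpl10l, Rpl22l1, Rpl36al, Rpl39l and Rps27l. The rule used names only, so the levels below did not choose the genes.

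The study measured RNA of the embryonic mouse forebrain at E12.5 (12.5 days of development), when progenitors line the ventricles and the earliest neurons have appeared. Both samples form 1 group of healthy B6NCrl embryos of both sexes, and no treatment or other genotype was compared. Pool 1 held the forebrains of 120 embryos and pool 2 those of 68, so the values average over many embryos. Both pools carry the same donor label, and whether they share litters is not given by the labels. Each library began with 10 ng of RNA, primed with oligo-dT so that polyadenylated RNA was read, made into cDNA with a low-input kit and cut by Nextera tagmentation, with ERCC spike-in RNA added.

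Gene counts summed to 33373843 in pool 1 and 34406648 in pool 2, and the spike-ins took 8.73% and 7.82% of all TPM. TPM, transcripts per 1e6 transcripts, is a level per length of transcript. All 8 forebrain markers were detected at means of 20.9 to 198 TPM, and none of 6 midbrain, hindbrain and trunk markers reached 1 TPM in both pools. The TPM of 10 red cell genes added up to 12683 in pool 1 and 16990 in pool 2, that of 8 mesenchyme genes to 655 and 798, and that of 6 muscle genes to 3.16 and 8.45. With 1 library a pool, a difference between pools has no replicate check, and no p-value is given; an SD below is over 2 pools.

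Each ribosome carries 1 copy of nearly every one of these proteins around its ribosomal RNA, apart from the acidic stalk proteins, which are present in several copies. The genes are active in every dividing cell, and many of their mRNAs begin with a run of pyrimidines, the 5′ terminal oligopyrimidine (TOP) tract, through which growth signalling by mTOR and the protein Larp1 control translation. Their coding sequences have been copied back into the genome many times as processed pseudogenes, intronless copies of an mRNA, and reads from a gene and from such a copy are hard to tell apart.

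Promoter sequences around the annotated start were printed first because the start of the mRNA carries the tract. RefSeq windows (GRCm38.p6, 250 bases before to 50 after the start) were matched for 64 of the 84 genes. Each line gives 20 bases before the annotated start and 15 from it, with the unbroken run of C or T that holds the start base in capitals. These are the 6 genes of highest level among those with C at the start base and at least 4 further pyrimidines.
Rps27: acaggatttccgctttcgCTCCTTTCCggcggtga
Rpl35: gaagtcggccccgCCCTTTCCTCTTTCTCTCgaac
Rps18: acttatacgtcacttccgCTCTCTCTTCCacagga
Rplp2: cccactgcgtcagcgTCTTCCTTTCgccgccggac
Rpl38: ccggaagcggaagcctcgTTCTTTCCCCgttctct
Rps10: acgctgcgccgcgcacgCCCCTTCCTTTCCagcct
The windows lie at chr3:90213634-90213668 for Rps27, chr2:39005117-39005151 for Rpl35, chr17:33955651-33955685 for Rps18 and chr17:27635230-27635264 for Rps10, all on the minus strand. Those of Rplp2 and Rpl38 lie at chr7:141447631-141447665 and chr11:114668560-114668594, both on the plus strand. The runs are 9 bases long in Rps27, 18 in Rpl35, 11 in Rps18, 10 in Rplp2, 10 in Rpl38 and 13 in Rps10.

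The next lines show, over the same 35 bases, the 3 genes of highest level with no tract begun by C within 5 bases of the annotated start.
Rpl41: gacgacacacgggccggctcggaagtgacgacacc
Rps25: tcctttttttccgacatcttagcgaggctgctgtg
Rps19: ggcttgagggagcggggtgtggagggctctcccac
They lie at chr10:128549154-128549188 (minus strand), chr9:44407694-44407728 (plus strand) and chr7:24884893-24884927 (plus strand). The Rps25 window holds a run of C and T further upstream, and the Rps19 window holds one further downstream. The 3 genes thus lack the tract only within that reach of the annotated start.

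A C followed by at least 5 bases that were each C or T began within 5 bases of the annotated start in 24 of the 64 genes (37.5%), against 10.5% of 10058 other detected protein-coding genes with a window. A C at the start base itself with at least 4 further pyrimidines was found in 12 of the 64 (18.8%), against 2.26% of the others. Each window was the one nearest the start of the gene's most counted protein-coding M21 transcript. The annotated start lay within 10 bases of that start in 24 of the 64 (37.5%), against 45.7% of the others. The windows thus depend on which start RefSeq gives. They need not be those of the most counted transcript of any type, which for Rpl35 was the processed transcript Rpl35-203. Of 3 other motifs searched, CCGGAAG, the core bound by ETS factors, stood on either strand of the 300 bases in 24 of the 64 (37.5%), against 18.5% of the others. AAGATGG, the core bound by YY1, stood on either strand in 9 (14.1%), against 7.13%, and in none of the 64 windows did the 2 motifs overlap. TATAAA, 40 to 16 bases before the start, was found in 1 (1.56%), against 1.02%. Genes with the tract near the start had a median level of 464 TPM (n = 24) and those without it 510 TPM (n = 37 detected), so the level was not higher where the tract was annotated.

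The ribosomal protein genes stood among the most abundant mRNAs of the forebrain. Their median level was 497 TPM in pool 1 and 532 TPM in pool 2 (mean 516 ± 24.2, SD, n = 2), against 22.0 and 22.0 TPM for all detected protein-coding genes. Ranked by mean TPM among protein-coding genes of the nuclear genome, 23 of the top 100 were ribosomal protein genes and 76 stood in the top 1000, although none was in the top 10. Together the 84 genes held 4.67% of TPM in pool 1 and 4.94% in pool 2 (mean 4.80 ± 0.190%, SD, n = 2). Their mRNAs were short, with a median effective length of 556 bases against 2409 bases for other detected protein-coding genes, and the same genes took 1.69% and 1.80% of the gene counts. Detection, at least 1 TPM in both pools, held for 81 of 84 genes (96.4%), against 58.9% of all protein-coding genes.

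**Figure D1:**
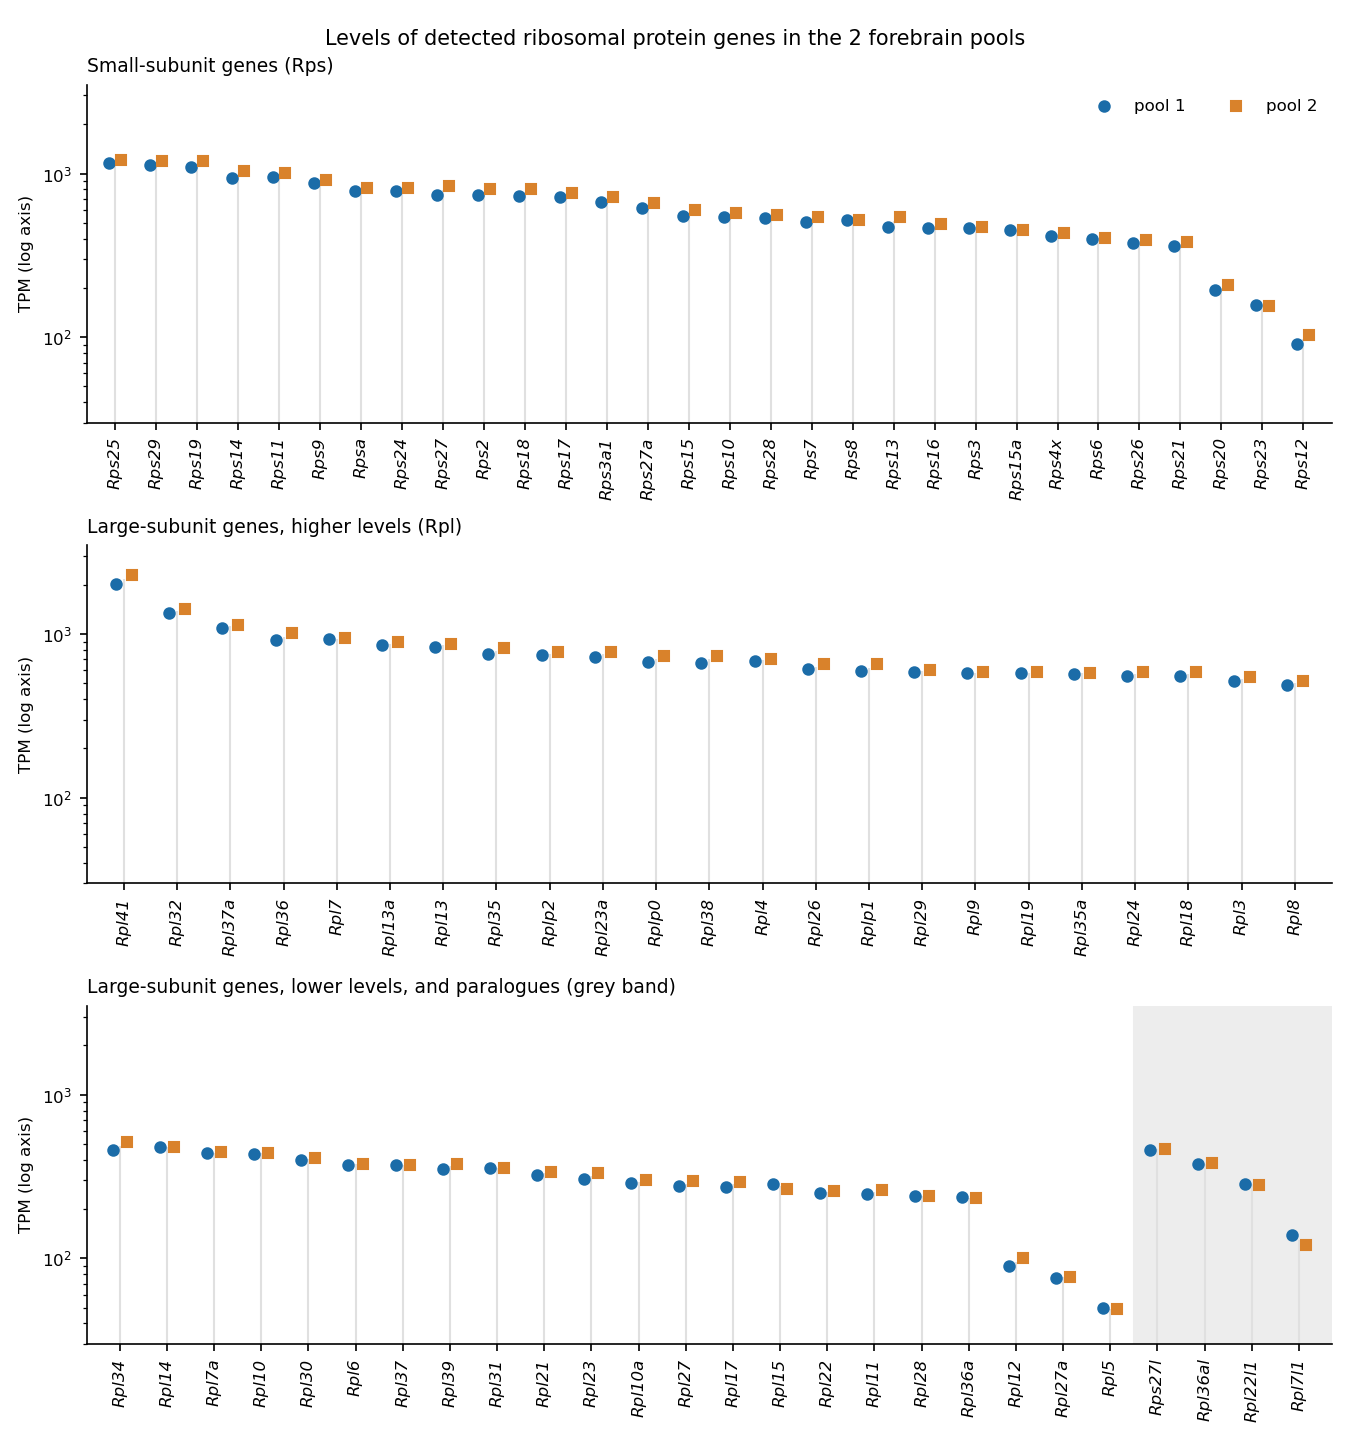
Levels of detected ribosomal protein genes in TPM (log axis) in pool 1 (blue circles) and pool 2 (orange squares), for 30 small-subunit genes, 45 large-subunit genes in 2 rows of descending level and the 4 detected paralogues (grey band). The pools lie side by side for each gene, while the core genes span 49.3 to 2157 TPM in their means.

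The plot of levels by gene showed a spread between genes far wider than the spread between pools. Across the 77 core genes the mean level ran over a 43.7-fold range, with the middle 50% of genes between 372 and 769 TPM, and 60 of the 77 lay within 2-fold of their median of 547 TPM. Between pools, 68 of the 77 differed by less than 10%, and the log2 levels of the pools had a Pearson correlation of 0.998 across these genes, which share both libraries and are not independent replicates. The small-subunit genes had a median of 560 TPM (96.9 to 1179 TPM) and the large-subunit genes one of 516 TPM (49.3 to 2157 TPM), and both sets overlapped over most of their range.

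Among the small-subunit genes in M21 without copies, Rps25 was highest, with 1152 TPM in pool 1 and 1206 TPM in pool 2. Rps29, a zinc-binding protein of the 40S head, had 1132 and 1185 TPM, and Rps19, the gene most often mutated in Diamond-Blackfan anaemia, an inherited failure of red cell production in humans, had 1091 and 1188 TPM. Rpsa, also known as the laminin receptor, had 778 and 821 TPM, and Rps6, the substrate of S6 kinase, had 396 and 406 TPM. These genes kept their order in both pools apart from Rps29 and Rps19, whose values lay within 5% of each other. The first place of Rps25 was not kept in the older annotation. There it had a mean of 863 TPM, below Rps29 at 1217 TPM and Rps19 at 1218 TPM. With sequence copies added, Rps29 had a mean of 2472 TPM and Rps25 1193 TPM. At the low end stood Rps20 with 194 and 207 TPM, Rps23, which lies at the decoding centre, with 158 and 155 TPM, and Rps12 with 91.1 and 103 TPM. No other small-subunit gene was below 300 TPM.

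Among the large-subunit genes, Rpl41, which encodes the smallest ribosomal protein, a short basic peptide, had 2027 TPM in pool 1 and 2288 TPM in pool 2. Rpl32 had 1341 and 1432 TPM, and Rpl37a had 1091 and 1144 TPM. The lateral stalk, which recruits translation factors, is built of Rplp0, the scaffold, and the acidic Rplp1 and Rplp2. Rplp0 had 671 and 739 TPM, Rplp1 591 and 657 TPM, and Rplp2 741 and 772 TPM, so the scaffold and the proteins it carries in several copies had similar mRNA levels, with Rplp2 highest and Rplp1 lowest in both pools. Rpl5 and Rpl11, which bind the 5S ribosomal RNA and, when free, the p53 regulator Mdm2, were both low without their sequence copies. Rpl5 had 49.6 and 49.0 TPM and Rpl11 246 and 260 TPM. With copies added their means were 492 and 468 TPM, against a median of 664 TPM for core genes with copies. Rpl27a had 75.9 and 76.9 TPM and Rpl12 a mean of 94.8 TPM. Each of the low genes Rps20, Rps23, Rps12, Rpl5, Rpl27a and Rpl12 had a sequence copy at a higher TPM than its own. Rpl38 and Rpl24, in which mouse mutations change the axial skeleton, the tail and pigmentation, had 670 and 737 TPM and 555 and 585 TPM.

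Grouped by place in the ribosome, genes whose proteins sit at 1 site did not share 1 level. At the entry of the mRNA channel, Rps2 had 738 TPM in pool 1 and 803 TPM in pool 2. Rps3, at the same site, had 466 and 473 TPM. At the mRNA exit, Rps14 had 943 and 1029 TPM, Rps28 had 535 and 558 TPM, and Rps26 had 378 and 392 TPM. Thus Rps14 stood above Rps26 by more than either differed between pools. The place of Rps28 was less settled. With sequence copies added it had a mean of 953 TPM, near Rps14 at 990 TPM and above Rps26 at 492 TPM. Those copies of Rps28 held 385 TPM in pool 1 and 429 TPM in pool 2. They did so on 914 and 1059 counts, against 3268 and 3553 counts for Rps28 itself. Short copies carry more TPM per count, so the place of the sum near Rps14 depends on the lengths used. In the older annotation Rps28 had a mean of 579 TPM, below Rps26 at 678 TPM, and Rps14 had 1050 TPM. Of the proteins that line the tunnel through which the new peptide leaves, Rpl4 had 689 and 708 TPM, Rpl17 274 and 293 TPM, and Rpl39 352 and 377 TPM. At the tunnel's end, where targeting factors bind, Rpl23a had 726 and 781 TPM and Rpl35 757 and 820 TPM.

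Near the peptidyl transferase centre, Rpl3 had 514 TPM in pool 1 and 543 TPM in pool 2, Rpl8 487 and 519 TPM, and Rpl10, which joins late in assembly, 433 and 442 TPM. Without their sequence copies these 3 lay close together, and each was higher in pool 2. With copies added, Rpl3 had a mean of 562 TPM, Rpl8 503 TPM and Rpl10 726 TPM, so Rpl10 stood highest in place of lowest. Rpl12, at the base of the stalk, was several times below Rplp0, Rplp1 and Rplp2 in both pools. With its copies added it had a mean of 317 TPM.

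Other ribosomal proteins fall outside the naming rule. Fau, which encodes a ubiquitin-like protein fused to a 40S protein, had 508 TPM in pool 1 and 523 TPM in pool 2. Rack1, the scaffold of the 40S head, had 400 and 442 TPM. Both lay in the range of the core genes, as did Rps27a, a core gene that encodes ubiquitin fused to a 40S protein, with 617 and 659 TPM.

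The 7 paralogues fell into 4 that were expressed and 3 that were not detected. Rpl22l1 had 286 TPM in pool 1 and 281 TPM in pool 2, against 249 and 259 TPM for Rpl22, so the paralogue stood at 1.12 ± 0.0435 times its core gene (SD, n = 2). That ratio is over all transcript types. Types other than protein-coding held 52.5% and 40.5% of the TPM of Rpl22l1, against 2.69% and 2.92% for Rpl22. The most abundant protein-coding transcript of Rpl22l1, Rpl22l1-206, had 120 and 148 TPM. That of Rpl22, Rpl22-201, stood higher, with 205 and 216 TPM. Rpl36al had 375 and 381 TPM, against 236 and 233 TPM for Rpl36a, a ratio of 1.61 ± 0.0367. Rps27l, a target of p53, had 459 and 468 TPM, against 735 and 844 TPM for Rps27, a ratio of 0.589 ± 0.0493. Rpl7l1 had 139 and 121 TPM, against 932 and 947 TPM for Rpl7, a ratio of 0.138 ± 0.0156. In each of these 4 pairs the direction of the difference was the same in both pools. In the older annotation the direction turned for Rps27l, with 488 TPM on average against 289 TPM for Rps27, and stayed for Rpl36al, with 415 TPM against 333 TPM for Rpl36a. The turn holds only for Rps27 without its copies. Rps27rt, named here after its values were seen, is identical to Rps27 over the coding sequence. It had a mean of 848 TPM in the older annotation, above Rps27l, and 249 TPM in M21. With sequence copies added to each gene, Rpl36al had a mean of 379 TPM and Rpl36a 380 TPM, so that difference was lost. The other pairs kept their direction with copies added.

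Rpl3l, known from heart and skeletal muscle, and Rpl10l, an intronless gene known from testis, had 0 counts in both pools. A count of 0 allows up to 3 counts, which is 0.156 TPM in pool 1 and 0.150 TPM in pool 2 for Rpl3l, and 0.153 and 0.147 TPM for Rpl10l; such limits cover counting error only, since the cDNA was amplified and carries no molecular identifiers. Rpl39l, also known from testis, had 7 and 5 counts, or 0.47 and 0.32 TPM, against 352 and 377 TPM for Rpl39. Rps4l, which M21 lists as a transcribed processed pseudogene and which is therefore not among the 84, had 106 and 113 TPM, against 415 and 434 TPM for Rps4x, a ratio of 0.258 ± 0.00226.

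Copies of the coding sequences elsewhere in the genome took a large part of the signal of some genes. The search (blastn, at least 90% identity over at least 50% of a coding sequence) covered transcripts of annotated pseudogenes and of genes named as copies of these. Other transcripts were not searched. It gave 1034 copies of 80 of the 84 genes, 1028 of them annotated as pseudogenes and 6 as protein-coding. Of the 1034 copies, 143 (13.8%) were detected, against 5.33% of 13133 processed pseudogenes of all kinds, and 418 had 0 counts in both pools. The TPM of the copies added up to 10897 in pool 1 and 11607 in pool 2, which is 18.9% and 19.0% of the joint TPM of genes and copies. The signal was concentrated: 24 copies identical to their parent over the whole coding sequence held 67.4% of it, and 10 copies held 54.1%. The 294 processed pseudogenes whose names follow a ribosomal protein symbol summed to 4651 and 4946 TPM, of which 54 were detected.

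The 6 copies of highest level matched their parent at every aligned base. Gm14303, a copy of Rps29, had 1267 TPM in pool 1 and 1355 TPM in pool 2, from 1936 and 2158 counts on a gene of under 200 bases. Rps23-ps1 had 958 and 1023 TPM, against 158 and 155 TPM for Rps23 itself, so the copy stood above its parent in both pools. Gm12918, a copy of Rpl13, had 599 and 667 TPM, and Rpl15-ps3 had 585 and 638 TPM, against 286 and 266 TPM for Rpl15. Rpl28-ps1 had 493 and 502 TPM, against 242 and 240 TPM for Rpl28. Gm15500, a copy of Rpl5, had 434 and 450 TPM, which is several times the level of Rpl5. Rpl27-ps3 and Gm11518, named here after their values were seen, are both identical copies of Rpl27 and were given the same 2519 and 2621 counts each. The tables cannot tell which of such genes the RNA came from.

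The sequences show how little there is to separate them. The stretches below cover 60 bases of a parent's coding sequence within 1 exon and the same bases of the copy, from GENCODE M21 transcripts (GRCm38), with any base that differs in capitals. In Rps23 and Rps23-ps1 all 425 aligned bases of the 429-base coding sequence were the same.
Rps23: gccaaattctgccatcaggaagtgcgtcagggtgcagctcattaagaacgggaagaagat
Rps23-ps1: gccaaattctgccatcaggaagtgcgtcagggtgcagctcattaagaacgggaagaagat
The parent's stretch lies in exon 3 of 4 of Rps23-201 at chr13:90924344-90924403 (plus strand), and that of the copy in a single-exon pseudogene at chr3:37714922-37714981 (plus strand).

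Some copies, chosen after their values were seen, had 1 difference from the parent over the aligned coding bases, so reads within those bases could tell them apart only at that position. Rpl37rt differs from Rpl37 by G249A, Gm4332 from Rps20 by G324A, and Gm10288 from Rpl11 by G86A, counted from 1 at the first base of the parent's coding sequence with the parent's base first.
Rpl37: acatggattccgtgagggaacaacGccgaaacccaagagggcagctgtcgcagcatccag
Rpl37rt: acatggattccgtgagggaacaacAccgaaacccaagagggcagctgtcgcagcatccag
Rps20: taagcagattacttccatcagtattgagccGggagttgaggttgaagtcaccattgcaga
Gm4332: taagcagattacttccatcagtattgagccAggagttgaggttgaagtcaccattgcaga
Rpl11: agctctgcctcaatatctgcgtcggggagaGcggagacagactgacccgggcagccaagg
Gm10288: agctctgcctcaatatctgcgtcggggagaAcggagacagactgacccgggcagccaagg
The parents' stretches lie at chr15:5118567-5118626 (plus strand, exon 4 of 4 of Rpl37-201), chr4:3834508-3834567 (minus strand, exon 4 of 4 of Rps20-203) and chr4:136052609-136052668 (minus strand, exon 2 of 6 of Rpl11-201). Those of the copies lie at chr5:115103238-115103297 (minus strand), chr3:119709798-119709857 (plus strand) and chr3:146839233-146839292 (minus strand). Rpl37rt had 332 TPM in pool 1 and 392 TPM in pool 2, against 372 and 372 TPM for Rpl37. Gm4332 had 323 and 342 TPM, against 194 and 207 TPM for Rps20, and Gm10288 had 219 and 202 TPM, against 246 and 260 TPM for Rpl11.

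**Figure D2:**
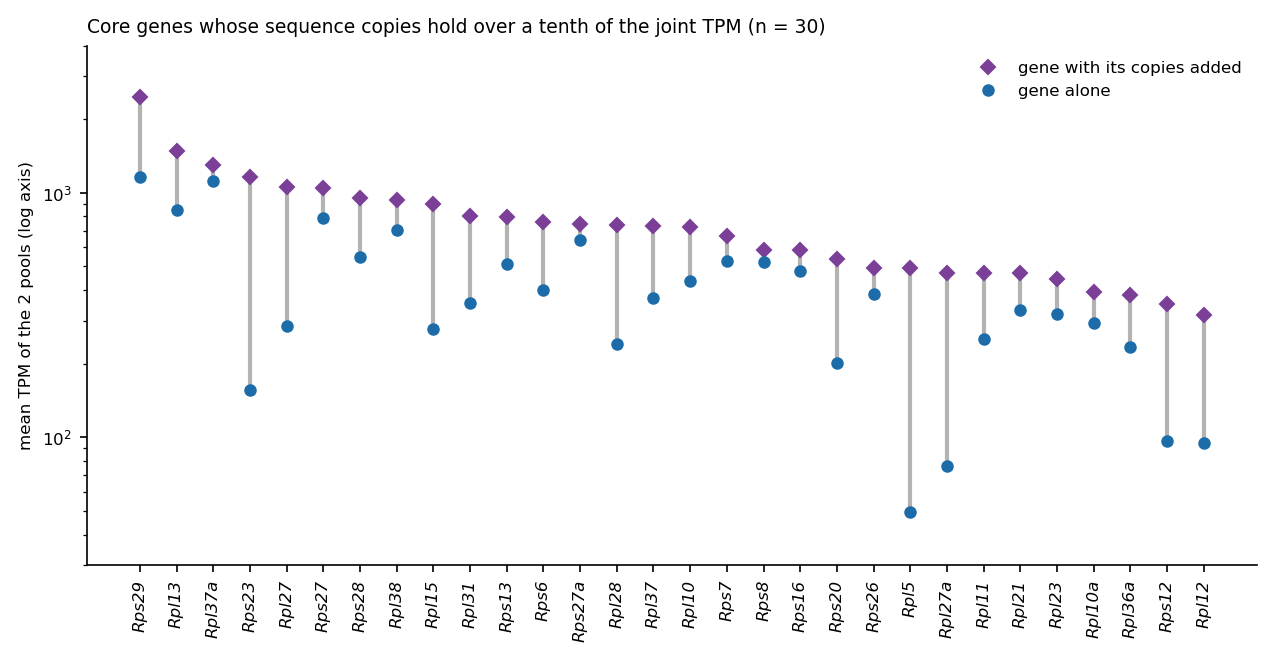
Mean TPM of the 2 pools (log axis) for the 30 core genes whose copies hold over 10% of the joint TPM: the gene with its copies added (purple diamonds) and the gene alone (blue circles). Rpl5 moves to 492 TPM with its copy, against 49.3 TPM alone, and Rps23 to 1155 TPM, against 156 TPM.

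Adding each gene's copies to it narrowed the range of the core genes, as the plot of genes with and without copies shows. The SD of the log2 level over the 77 genes was 0.64 with copies and 0.97 without, and the range 9.70-fold and 43.7-fold. With copies, 1 core gene was below 300 TPM, Rpl22 at 255 TPM, while 14 were below it alone. Of the 10 lowest core genes, 7 had a copy at a higher TPM than their own, as did 11 of all 77. The sums do not show which genes the reads came from. They also add TPM computed on unlike lengths, so a short copy adds more than its counts would at its parent's length. For the most counted transcript of each gene, the share of 100-base words also found in another gene was taken. It had a median of 42.9% over the 84 genes, was over 50% in 36 and 0 in 9. The deposited posterior SD of a gene's count, as a percent of the count, had a median of 0.407% over the genes and was highest in Rps12, at 4.23%. The shared words of that transcript made up 98.4% for Rps27 and 91.6% for Rpl10, and 0 for Rps3, Rps21 and Rpl32. Other transcripts of Rps3 and Rpl32 each shared words with 1 other gene. Across the 77 core genes the share of shared words and the level had a Spearman correlation of -0.11, a description over genes of the same libraries.

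The older annotation of the same reads (GENCODE M4) gave nearly the same total, 4.60% and 4.87% of TPM in pools 1 and 2, but other values for single genes. By mean TPM plus 1, 6 genes were past 1.5-fold higher in M21, against 2.76% of 21474 shared protein-coding genes, and 3 past 1.5-fold lower, against 0.643%. Among shared protein-coding genes with at least 1 TPM in either release these shares were 4.45% and 1.04%. The median log2 ratio of M21 over M4 was -0.07 for the 84 genes and -0.06 for those protein-coding genes.

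**Figure D3:**
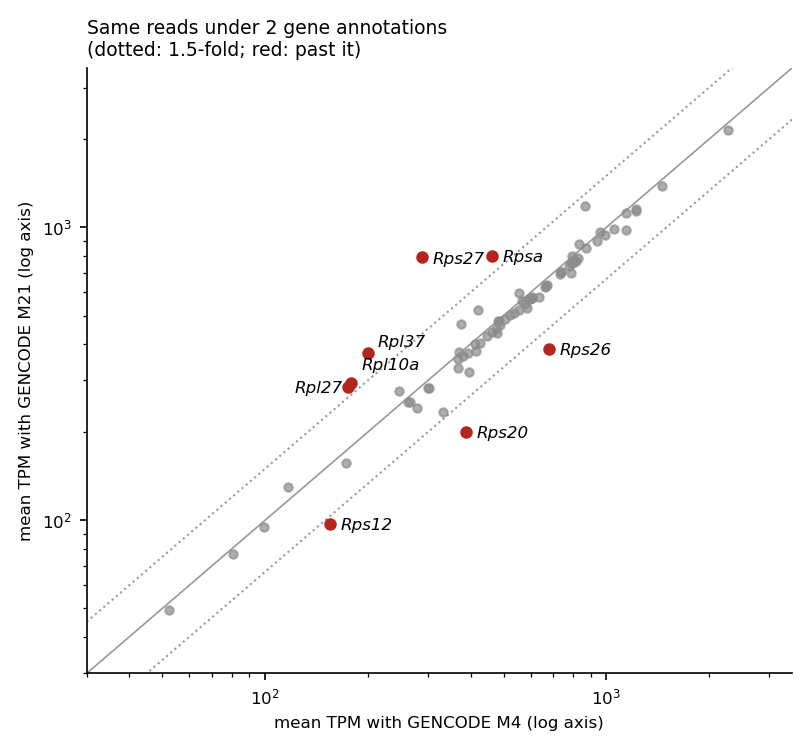
Mean TPM of the detected ribosomal protein genes with GENCODE M21 (vertical, log axis) against GENCODE M4 (horizontal, log axis), from the same 2 libraries. The 8 red points are past 1.5-fold, 5 above the diagonal, of which Rps27 is farthest among those plotted at 2.73-fold, and 3 below it.

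Rps27 had 735 and 844 TPM in M21, against 259 and 319 TPM in M4, and its counts also differed, with 3884 and 4635 in M21 and 814 and 1045 in M4. Its copy Rps27rt went the other way, with 270 and 229 TPM in M21, against 834 and 861 TPM in M4. Rpsa had 778 and 821 TPM in M21, against 451 and 475 TPM in M4, while its scaled counts differed 0.978-fold. The ratios were 1.86-fold for Rpl37, 1.64-fold for Rpl10a and 1.63-fold for Rpl27. Rps20 had 194 and 207 TPM in M21, against 376 and 401 TPM in M4, Rps26 378 and 392 TPM against 664 and 691 TPM, and Rps12 91.1 and 103 TPM against 147 and 162 TPM. By counts scaled to the library total in place of TPM, 4 genes were past 1.5-fold, Rps27, Rpl10a and Rpl27 higher in M21 and Rps20 lower.

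Transcript tables showed which annotated forms carried the signal. Transcripts typed as protein-coding held 84.7% of the genes' TPM in pool 1 and 85.1% in pool 2. Those typed as targets of nonsense-mediated decay held 5.89% and 5.81%, retained introns 5.01% and 4.94%, and processed transcripts 4.42% and 4.13%. In 10 of the 84 genes over 50% of the TPM lay outside protein-coding transcripts, against 10.6% of detected protein-coding genes, and in 22 over 10% did, against 47.6%.

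**Figure D4:**
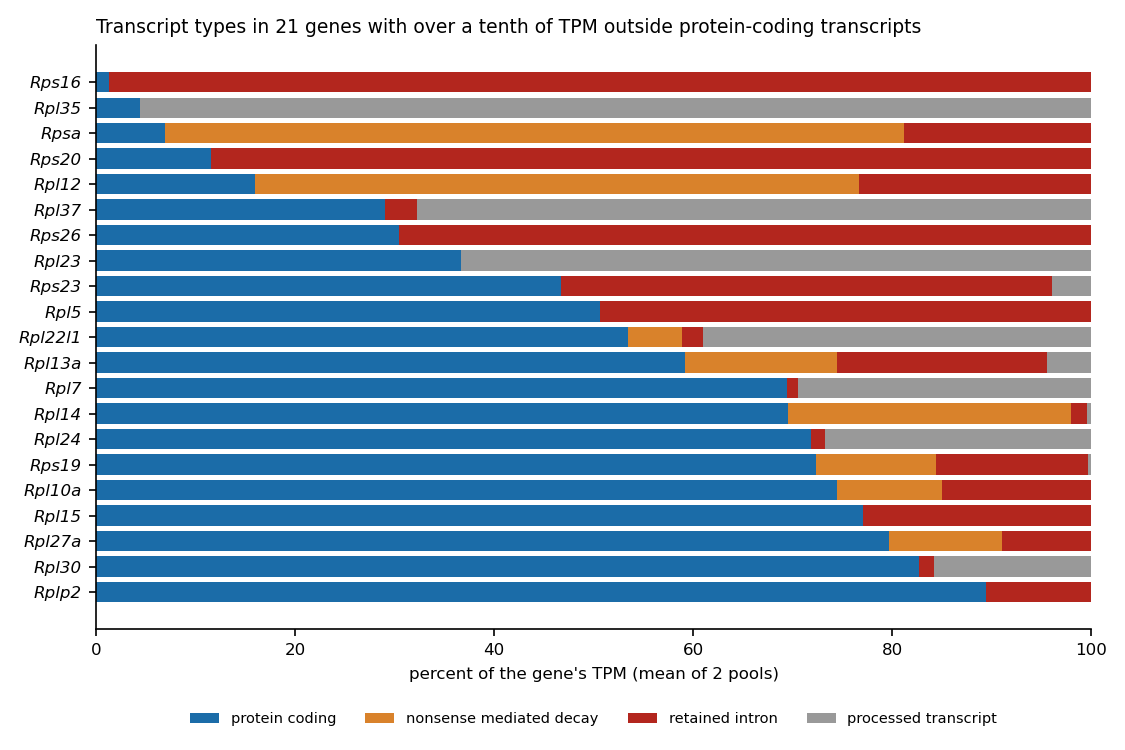
Percent of each gene's TPM (mean of 2 pools) in transcripts of 4 annotated types, for 21 ribosomal protein genes with over 10% outside protein-coding transcripts. Rps16, Rpl35 and Rpsa head the list with 98.7%, 95.6% and 93.1%, and 9 genes shown have over 50% outside.

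In Rps16, the retained-intron transcript Rps16-203 had 339 TPM in pool 1 and 353 TPM in pool 2, against 5.78 and 6.38 TPM for the protein-coding Rps16-201. In Rpl35, the processed transcript Rpl35-203 had 666 and 708 TPM, against 34.4 and 35.6 TPM for Rpl35-201. These types are labels of the annotation, and the protein-coding transcripts of Rps16 and Rpl35 are the longest of those named, with 1109 bases against 518 for Rps16 and 946 against 541 for Rpl35. In Rps24 the reads favoured Rps24-202, with 608 and 668 TPM, over Rps24-201, with 127 and 103 TPM. Both are annotated with the same coding sequence, and Rps24-202 alone of the pair holds a whole exon of 20 bases and a last exon after it. That exon, number 5, is shown because it marks the favoured form, with the stop codon that begins it in capitals and the rest 3′ UTR.
Rps24-202: TGAgtggagattggatacag
It lies at chr14:24495430-24495449 on the plus strand.

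Between the pools the ribosomal protein genes differed little, and most in the same direction. By counts scaled with edgeR's TMM factors (trimmed mean of M values), none of the 81 genes that averaged 10 counts or more stood over 25% above the other pool, in either direction, against 7.84% of 19063 genes in pool 1 and 15.7% in pool 2. Only 7048 of the 19063 lay in the members' range of counts, so these shares mix genes of other count levels. The normalised count was higher in pool 2 for 72 of 81 genes, against 50.6% of all genes. The median log2 ratio of pool 1 over pool 2 was -0.06, or 1.04-fold higher in pool 2, against -0.0026 for all genes. The ratios of the 81 genes had an SD of 0.05, against 0.13 over 7048 genes in the same range of counts.

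**Figure D5:**
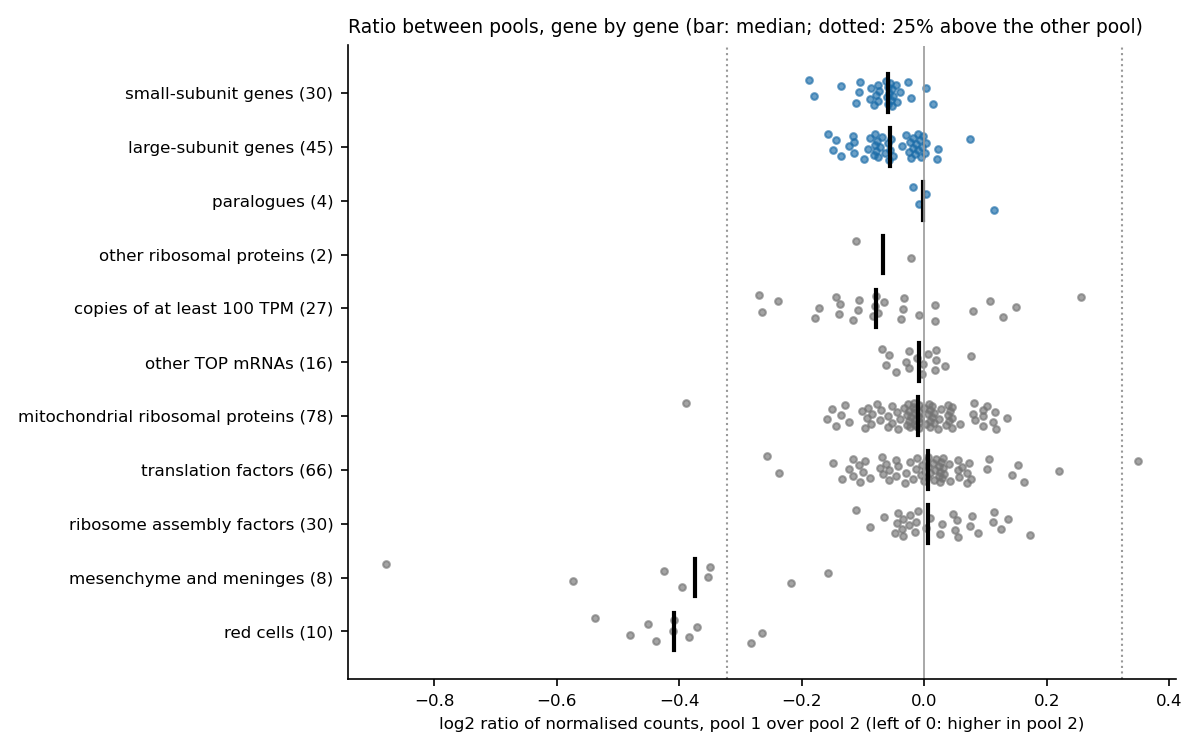
Log2 ratio of normalised counts, pool 1 over pool 2, for each gene (points) of the ribosomal protein genes (blue) and other lists (grey), with list sizes in brackets, medians as black bars and 25% above the other pool as dotted lines. Small-subunit and large-subunit genes centre at -0.06, while red cell and mesenchyme genes lie at medians of -0.41 and -0.37.

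The 2 subunits had the same median log2 ratio of -0.06, with 29 of 31 small-subunit genes and 41 of 46 large-subunit genes higher in pool 2. The lowest ratio was that of Rps13, with 5148 normalised counts in pool 1 and 5865 in pool 2 (log2 -0.19), followed by Rps27, with 3988 and 4517 (log2 -0.18). The highest was that of the paralogue Rpl7l1, with 6279 and 5805 (log2 0.11), and among core genes Rpl15, with 6215 and 5905 (log2 0.07). The 4 paralogues had a median of -0.0031, and 2 of them were higher in pool 2. Genes with and without the tract near the start both had a median of -0.05. The 27 copies of at least 100 TPM had a median of -0.08, with 20 higher in pool 2, but copies share reads with their parents and are no separate measurement.

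The plot of ratios by list also shows other genes of translation. Fau and Rack1 had ratios of -0.02 and -0.11, and both were higher in pool 2. The 16 other mRNAs with a known TOP tract, at a median of 304 TPM, had a median ratio of -0.0081, with 10 higher in pool 2. Among them Eef1a1, the elongation factor that brings tRNA to the ribosome, had 2737 TPM in pool 1 and 2813 TPM in pool 2 (ratio -0.01), and Tpt1 had 745 and 772 TPM (-0.02). The 78 mitochondrial ribosomal protein genes had a median of 77.2 TPM and a median ratio of -0.0099, with 45 higher in pool 2. For the 66 translation factor genes tested the median ratio was 0.0051, with 30 higher in pool 2, and for 30 ribosome assembly factors 0.0063, with 14 higher, Ncl and Nop56 among the most abundant at 359 and 289 TPM. The difference between these lists and the ribosomal protein genes was not tested.

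Red cell and mesenchyme genes differed in the same direction and by more, with all 10 and all 8 higher in pool 2 at median log2 ratios of -0.41 and -0.37. Hbb-y had 4992 TPM in pool 1 and 6701 TPM in pool 2. Col3a1 had 287 and 315 TPM. Their part in the ratio of the ribosomal protein genes was not tested, and in pooled tissue fewer cells of a type and less RNA per cell cannot be told apart.

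Several of these genes carry other genes within them. Of the 84, 30 hold 58 annotated small nucleolar RNA (snoRNA) genes, guides of ribosomal RNA modification, mostly released from introns. Of the 58, 35 had an effective length of 0 in these tables, which leaves them no TPM, and 41 had 0 counts in both pools. The highest by counts and TPM, Gm26387 in Rpl5, picked after its value was seen, had 5 counts in pool 1 and 9 in pool 2. Apart from small RNA genes, 28 of the 84 overlap another gene, and 23 overlap one on the opposite strand. Unless strand was used in counting, which the labels and headers do not state, reads in such an overlap cannot be told apart. The most abundant partners, picked after their values were seen, were Ube2s, opposite Rpl28, with 339 and 349 TPM, and Trappc4, opposite Rps25, with 189 and 191 TPM.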

How the data were processed

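The 2 libraries of polyadenylated RNA, 1 for each pool, form 1 group. The authors deposited, per the file headers, expected counts (estimated reads, with reads of several matches shared out), TPM values and FPKM values per gene and transcript for mm10 with GENCODE M4 and M21. The deposited tables also give the posterior mean of TPM and a posterior SD of the count, each treated as a score, and per the file headers a percent of the gene's TPM for each transcript. FPKM values were not used for any result. Aligner, quantifier, their versions and the use of strand are not stated in the labels or headers. The deposited effective length was 99 bases under the length for nearly all entries, so short genes carry high TPM per count.

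Symbols and transcript types came from the GENCODE M21 annotation, promoter windows from RefSeq. Expected counts were rounded to whole numbers and scaled with edgeR 4.0.16 (TMM; R 4.3.3), or DESeq2 1.42.0 size factors as an alternative. Log2 ratios used a prior count of 1 and genes averaging 10 counts or more; the script was checked on simulated pools. Copies were found with blastn (at least 90% identity over 50% of a coding sequence). With 1 group of 2 libraries no test was made; an SD is over 2 pools and the numbers of embryos do not make more replicates. The members and lists were chosen with earlier results of these data known. Any ribosomal protein gene could be named. Of other lists the rule was the 4 highest and 2 lowest by TPM, or any of a list of 10 or fewer, and the 6 highest copies; exceptions are marked. Depth was 33373843 and 34406648 gene counts. Alternatives were the older annotation, other scalings, pseudocounts and filters, and each pool left out. Protein sequences, and promoter or coding sequences from chromosome 18, were not used here. Results of 3 single genes are not reported here, and the plots leave them out; counts over all genes include them.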

Additional observations from a re-analysis of the deposited data

How the results depend on the processing

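The number of genes detected was 81 under every alternative run, and the median TPM ran from 497 to 532 with 1 pool left out and stayed within 1 SD with M4 tables, posterior means or full gene lengths. It was 631 with copies added. The share of TPM, 4.67 to 4.94% with 1 pool left out, was 1.74% of gene counts, 5.99% of the TPM of nuclear protein-coding genes and 5.93% with copies added. Under spike-in totals the median log2 ratio between pools was -0.22, but that of all genes was -0.17, and 2 genes stood over 25% above the other pool. Relative to all genes the members' median stayed between -0.07 and -0.04 under each of the 9 settings. With no filter on low counts 1 gene did, Rpl39l on 7 and 5 counts. Counts scaled to the library total gave 4 genes past 1.5-fold between annotations in place of 9, and the count was 9 with either pool left out. Named pseudogenes summed to 4651 to 4946 TPM with 1 pool left out, and all copies found by sequence to 11252 TPM. Settings with copies added and with red cell genes left out of the totals (median log2 ratio -0.09) were chosen after seeing the data. No paired analysis was possible because both pools belong to 1 group and no contrast is labelled. Reads shared with identical copies limit the values of single genes.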

Other observations

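The 20 mouse genes whose human counterparts are mutated in Diamond-Blackfan anaemia, a list of the same family, had a median of 564 TPM, near that of all core genes at 547 TPM. Their levels ran from 49.3 TPM in Rpl5 to 1159 TPM in Rps29. By normalised count 17 of the 20 were higher in pool 2, as were 70 of the 77 core genes, against 50.6% of all genes. The 84 genes lie on 19 chromosomes, 14 of them on chromosome 7 and 4 on X. Rpl10, Rps4x, Rpl39 and Rpl36a, the 4 on X, had means of 437, 424, 364 and 235 TPM.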
